A study of Mus musculus with 78 samples.

Results

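Steady-state RNA was measured in mouse embryonic stem cells (mESCs) after 24 h of loss of the transcription factor ZFP143, and compared with control cells. All genes that had over 10 counts in 2 or more of the 4 libraries compared were taken, which gave 13783 of the 55401 genes in the count table. The comparison asked which transcripts change in level once the protein has been gone for 24 h. The cells were E14TG2a, an mESC line of the 129/Ola mouse strain, grown on gelatin in serum-free medium with LIF, the MEK inhibitor PD0325901 and the GSK3-β inhibitor CHIR99021. In all libraries, controls included, the C-terminus of endogenous ZFP143 carried an FKBP-2xHA-P2A-GFP cassette, where FKBP is a degron tag. The degrader dTAG-V1, given at 500 nM, recruits the von Hippel-Lindau ubiquitin ligase to that tag. The 2 treated libraries came from cells kept for 24 h in dTAG-V1, and the 2 control libraries from cells given the solvent DMSO, for a time that the labels do not give. The tagged line was picked from sorted single cells, and how many clones entered these libraries is not given in the sources used here. Cells with untagged ZFP143 and dTAG-V1 were not analysed here, so an effect of the degrader other than on ZFP143 cannot be told apart from the loss of ZFP143. Nascent RNA by TT-seq (after 2 h and 24 h), a second RNA-seq experiment with its own controls and a list of ZFP143 ChIP-seq peaks from the same study were set beside the 24 h result.

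ZFP143 (ZNF143 in human) is a zinc finger protein that binds a long, well conserved motif close to the start sites of many genes and activates them, together with the cofactor HCFC1. Its known targets include genes of mitochondrial proteins that are encoded in the nucleus, and genes of small nuclear RNAs and tRNAs. Steady-state RNA is the balance of synthesis and decay, so a transcript falls after its synthesis stops only as fast as it decays, whereas TT-seq labels RNA made within a few minutes. In bulk RNA a lower level of a transcript cannot be told apart from fewer cells that express it.

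Sequence under the peaks is shown first, because most of the strongest decreases had a ZFP143 peak at their start site. Of the 12 greatest decreases, chosen as given below, 11 had a peak, and 5 of the 11 windows of 300 bases around the peak summit held one of the 2 words searched on both strands. These words, ACTACAA of 7 letters and CCCANNATG of 9 letters, come from the published ZFP143 motif, in which they are joined by 2 bases, so that they do not overlap. The stretches are from the RefSeq genome GRCm38.p6, run 5′ to 3′ on the strand of the gene, and capitals mark the matching letters of either word or of its reverse complement. They lie at chr11:70015436-70015495 (minus strand, 58 bases upstream of the Acadvl start), chr7:24208146-24208175 (minus, 90 bases upstream of a Zfp111 start), chrX:49288523-49288582 (minus, 294 bases upstream of an Enox2 start), chr7:127993757-127993786 (minus, 96 bases downstream of a Pycard start) and chr9:107587496-107587555 (plus, 116 bases upstream of an Ifrd2 start). The Zfp111 and Pycard stretches lie in an annotated exon and the other 3 do not.
Acadvl: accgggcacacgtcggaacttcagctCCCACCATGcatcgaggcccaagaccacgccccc
Zfp111: ttccactgaggCATTCTGGGaatggtaatt
Enox2: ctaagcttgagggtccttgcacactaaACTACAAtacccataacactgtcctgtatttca
Pycard: ggtgggggagtCCCAGCATGcccatcggcc
Ifrd2: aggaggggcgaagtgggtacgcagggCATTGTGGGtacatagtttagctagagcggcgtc
Over all 3189 peaks, ACTACAA was found in 19.3% of such windows and CCCANNATG in 25.7%. At the promoters of genes that fell it was 33.7% and 26.5% of 392 windows, and at those of genes that fell more than 8-fold it was 43.8% and 32.9% of 73. Peaks at promoters of tested genes of which none fell held ACTACAA in 24.8% and CCCANNATG in 24.1% of 1381 windows. Either word was found in 39.9% of all windows and in 42.4% of those where none fell. At genes that fell it was 50.5%, and at those that fell more than 8-fold 61.6%. The 5 of 11 windows given above are thus near the share over all peaks. Both words joined in that way were rarer, at 3.48% of all windows, 5.87% of those at genes that fell and 4.78% of those where none fell. A match is a description of the letters in a window and not of binding.

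Before the results, 1 control library stood apart in genes that match ribosomal RNA. The totals were 12132490 and 15316700 counts in DMSO, and 12496700 and 10989976 after 24 h. CT010467.1, a gene whose sequence matches ribosomal RNA, took 3.593% of the counts in DMSO replicate 1, against 0.4722% in DMSO replicate 2, 0.5887% and 0.5266%. Lars2, the mitochondrial leucyl-tRNA synthetase, held 45839 counts in DMSO replicate 1 and 15464 to 19880 in the other 3 libraries. Over all genes the pair of DMSO libraries differed by 32.6 times the counting noise (chi-square per degree of freedom) and the 24 h pair by 2.02 times, but without the 7 genes that match ribosomal RNA these were 2.49 and 1.97 times. Values per library below are CPM, counts divided by the library total with a TMM scaling factor, and log2 changes are 24 h minus DMSO with their standard error (SE). The labels call the libraries replicates and the study's methods call them biological, with 2 in each group. A gene was called lower or higher where edgeR's glmTreat test against a 1.5-fold change gave a Benjamini-Hochberg adjusted p under 0.01. An exact permutation test of 2 against 2 libraries could not reach that threshold.

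The transcript of the targeted gene rose. Zfp143 had 42.4 and 43.6 CPM in DMSO and 94.8 and 90.4 CPM after 24 h, a log2 change of 1.11 ± 0.06 (edgeR glmTreat, adjusted p = 1.02e-08). Both 24 h libraries lay above both controls. The tag acts on the protein, so the transcript is no measure of the depletion. The log2 change was 1.35 in the second experiment and 1.18 in nascent RNA after 24 h.

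After 24 h, 528 genes were lower, which is 3.83% of the 13783 tested, and 327 were higher, which is 2.37%. With each library scaled by its total alone, 444 were lower and 487 higher, and the median log2 change of all genes moved from 0.02 to 0.14, so the balance of the directions depends on the scaling. DESeq2 at the same thresholds called 365 lower and 109 higher. Without DMSO replicate 1 the counts were 505 and 255. Among the genes that fell 434 changed more than 2-fold and 89 more than 8-fold, and among those that rose 298 and 17 did. The median log2 change was -1.53 for the lower and 1.51 for the higher genes. Both 24 h libraries lay below both controls for 527 of the 528 and above them for all 327, while 34.2% and 37.0% of all tested genes were separated in this way. The exception was CT010467.1, with 39500 and 5080 CPM in DMSO and 5890 and 5260 CPM after 24 h, which was not called without DMSO replicate 1 (log2 change 0.13, adjusted p = 1 in edgeR's glmTreat). The genes that rose were less abundant, with a median mean count of 69.8 against 282 for those that fell and 328 for all tested. The minimum count was met only through DMSO by 171 genes, of which 66 were called lower, and only through the 24 h libraries by 279, of which 53 were called higher, and such genes had to differ. Among the genes named below this holds for Timm21, Wnt3, Pomgnt2 and Npl beside 9 of the greatest decreases, and through the 24 h libraries for Cox6a2, Pou3f1 and 1700034P13Rik, so that the direction of each was fixed by the minimum. Of the 528 lower genes 403 were called also without each of the 4 libraries in turn, and of the 327 higher genes 144 were.

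**Figure D1:**
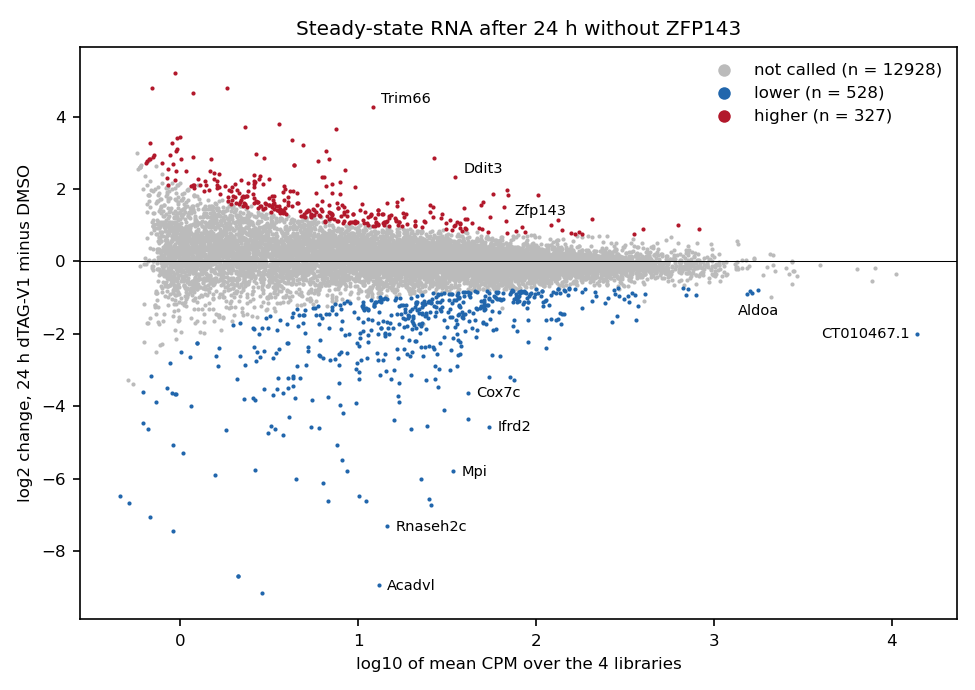
Log2 change at 24 h (24 h minus DMSO, vertical axis) against the log10 of the mean CPM over the 4 libraries, with 1 point for each of the 13783 genes tested, blue for lower, red for higher and grey for genes not called. The greatest decreases reach well beyond the greatest increases, and the higher genes lie mostly at low CPM. The point of CT010467.1 rests on DMSO replicate 1.

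The greatest decreases left few counts of a transcript after 24 h. They are the 12 lowest among called genes with a mean count of at least 100 and separated groups. Acadvl, the very long-chain acyl-CoA dehydrogenase of mitochondrial fatty acid oxidation, had 26.2 and 26.1 CPM in DMSO and 0.0801 and 0 CPM after 24 h. With 1 count in both 24 h libraries against 660 in DMSO, the ratio was 613 (95% counting interval 110 to 24200). Rnaseh2c, a subunit of the RNase H2 that removes ribonucleotides from DNA, had 30.5 and 27.4 against 0.24 and 0.0908 CPM (log2 change -7.32 ± 0.28). Zfp111, a zinc finger protein, had 50.4 and 51.6 against 0.641 and 0.272 CPM (log2 change -6.74 ± 0.20). In each of these genes the controls were close to each other and the treated libraries were near zero. Ccdc90b, a coiled-coil protein of mitochondria, had 22.4 and 21.2 against 0.0801 and 0.363 CPM (log2 change -6.61 ± 0.29). Mmachc, which processes cobalamin (vitamin B12) after its uptake, had 46.1 and 52.6 against 0.561 and 0.454 CPM (log2 change -6.57 ± 0.21). Usp40, a ubiquitin-specific protease, had 18.9 and 21.1 against 0.24 and 0.182 CPM (log2 change -6.49 ± 0.28).

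The rest of this group were lower by 23.6 to 64.1-fold. Mrps25, of the small subunit of the mitochondrial ribosome, had 42.1 and 46.2 CPM in DMSO against 0.641 and 0.727 CPM (log2 change -6.0 ± 0.19). Mpi, the isomerase that links fructose 6-phosphate to mannose 6-phosphate for glycosylation, had 68.5 and 65.7 against 0.881 and 1.54 CPM (log2 change -5.80 ± 0.16). Enox2, a NADH oxidase of the cell surface, had 15.5 and 18.5 against 0.481 and 0.0908 CPM (log2 change -5.79 ± 0.33). Each 24 h value was a small part of its controls, and separated groups were required by the rule. Krt7, a keratin of simple epithelia, had 15.8 in each control and 0.24 and 0.454 CPM after 24 h (log2 change -5.49 ± 0.28), and it is the only one of the 12 without a peak. In the second experiment the controls had only 0.556 and 0.717 CPM of Krt7, and it was called lower (log2 change -2.79). In nascent RNA after 24 h it was not called (log2 change -1.98). Pycard, the adaptor ASC of the inflammasome, had 38.6 and 37.9 against 1.68 and 1.36 CPM (log2 change -4.63 ± 0.17). Ifrd2, a protein found on ribosomes, was the most abundant of them, with 108 and 102 against 4.41 and 4.45 CPM (log2 change -4.56 ± 0.10). In 9 of the 12, all but Mpi, Pycard and Ifrd2, no 24 h library had more than 10 counts, so that they met the minimum only through DMSO, had to differ, and their adjusted p is no support. Leaving out 1 of the 24 h libraries moved some of these by over 1.5-fold, and the log2 change then lay between -7.40 and -5.12 for Enox2, -8.16 and -6.85 for Rnaseh2c and -7.50 and -6.29 for Zfp111, each lowest without replicate 1, and between -7.92 and -5.87 for Ccdc90b, lowest without replicate 2. For Mpi, Pycard and Ifrd2 the adjusted p lay between 1.52e-22 for Ifrd2 and 3e-18 for Pycard (edgeR glmTreat). At this depth a transcript at 0 or 1 count after 24 h gives a limit on what is left, not its absence.

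**Figure D2:**
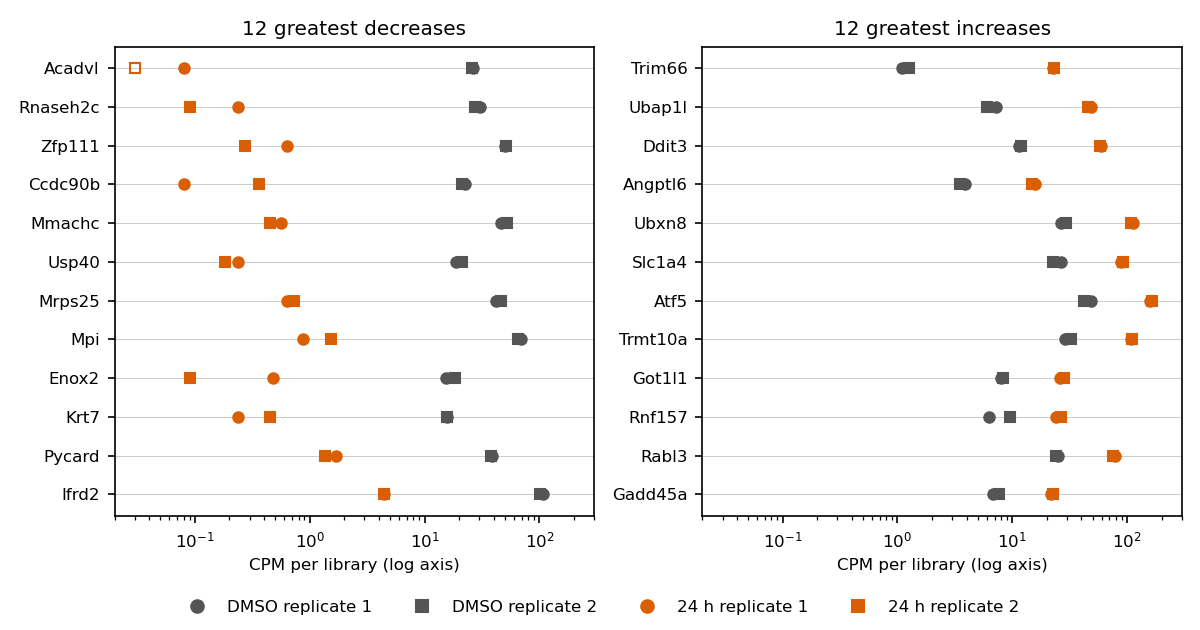
CPM in each of the 4 libraries, on a log axis, for the 12 greatest decreases and 12 greatest increases, with 1 point per library and the groups in 2 colours. An open marker at the left edge stands for 0 counts, which occurs only for Acadvl in 24 h replicate 2. Separated groups were required of the 24 genes with the greatest changes, so their lack of overlap is no result.

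The greatest increases, chosen by the same rule, were smaller, and Ddit3 and Atf5 among them belong to the stress response list described below. Trim66, a chromatin-reading protein of the TRIM family, had 1.09 and 1.26 CPM in DMSO and 22.8 and 23.2 CPM after 24 h (log2 change 4.26 ± 0.18). Ubap1l, which is related to a subunit of the ESCRT-I complex, had 7.15 and 6.04 against 48.8 and 45.4 CPM (log2 change 2.85 ± 0.10). Ddit3, the stress-induced transcription factor CHOP, had 11.4 and 11.8 against 59.3 and 57.8 CPM (log2 change 2.33 ± 0.09). In all 3 the treated libraries agreed closely and lay far above the controls. Angptl6, a secreted angiopoietin-like protein, had 3.89 and 3.51 against 15.9 and 14.9 CPM (log2 change 2.06 ± 0.15). Ubxn8, an adaptor of the p97 segregase in the endoplasmic reticulum membrane, had 26.3 and 29.6 against 112 and 109 CPM (log2 change 1.97 ± 0.07). Slc1a4, a transporter of serine and other neutral amino acids, had 26.5 and 22.8 against 88.4 and 91.3 CPM (log2 change 1.88 ± 0.07). Atf5, a stress-induced transcription factor linked to the mitochondrial unfolded protein response, had 48.3 and 41.7 against 157 and 164 CPM (log2 change 1.84 ± 0.06).

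The other 5 of these rose by 3.03 to 3.54-fold. Trmt10a, a tRNA methyltransferase, had 28.8 and 32.5 CPM in DMSO against 108 and 111 CPM after 24 h. Got1l1, named for its likeness to aspartate aminotransferase, had 7.97 and 8.29 against 26.0 and 28.1 CPM. Rnf157, a ubiquitin ligase, had 6.25 and 9.49 against 24.1 and 26.7 CPM. In each of these 3 the control libraries differed by much less than the change. Rabl3, a Rab-like GTPase, had 24.9 and 24.2 against 77.6 and 74.9 CPM. Gadd45a, a gene of the growth arrest and DNA damage response, had 6.79 and 7.59 against 21.5 and 22.5 CPM. The adjusted p of the 12 lay between 1.97e-17 for Ubap1l and 2.54e-08 for Rnf157 (edgeR glmTreat). Only Ddit3, Ubxn8, Trmt10a and Rabl3 of the 12 had a ZFP143 peak by the rule used, which for Ddit3 lay 1830 bp from the start site.

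Later libraries of the time course, which share the DMSO controls, gave values in the same range for the decreases. The log2 change of Acadvl was -8.95 at 24 h, -8.11 at 48 h and -11.32 at 72 h, but so few counts leave these values without precision. Ifrd2 had -4.56, -4.02 and -3.80, Mmachc -6.57, -7.34 and -9.11, and Mrps25 -6.0, -6.20 and -6.64. Ccdc90b had -6.61, -5.52 and -4.63, and Usp40 -6.49, -6.25 and -5.06. Among the increases Atf5 had 1.84, 2.47 and 3.38 and Gadd45a 1.6, 2.90 and 3.21, whereas Ubxn8 had 1.97, 1.63 and 1.39.

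Mitochondrial gene groups came next, since mitochondrial proteins are a known class of ZFP143 targets. In this and the following groups the background is 3.83% lower, 2.37% higher and a median log2 change of 0.02, or of 0.14 with scaling by library totals, 34.2% of all genes had both 24 h libraries below both controls, and edgeR's quasi-likelihood test at adjusted p under 0.05 with a log2 change beyond 0.5 called 8.90% lower and 11.3% higher. Of 77 tested genes of the mitochondrial ribosome 6 fell and none rose, and their median log2 change was 0.01. Besides Mrps25 they included Mrpl24, with 101 and 96.1 CPM in DMSO and 10.3 and 11.2 CPM after 24 h (log2 change -3.20 ± 0.09), Mrpl54 (-2.54 ± 0.15) and Mrpl34 (-1.72 ± 0.09), all of which are structural proteins of the ribosome that translates mitochondrial messages. Each of the 6 had a ZFP143 peak. Among 82 nuclear-encoded subunits of oxidative phosphorylation (OXPHOS) 11 fell and 1 rose (median -0.10), and 9 of the 11 had a peak. Cox7c, a subunit of cytochrome c oxidase, fell from 78.9 and 73.9 to 5.69 and 6.72 CPM (log2 change -3.62 ± 0.11). Uqcr10, a subunit of complex III, fell from 126 and 132 to 14.1 and 14.3 CPM (log2 change -3.19 ± 0.08). Ndufa4l2, which is related to a subunit of cytochrome c oxidase, fell from 8.51 and 7.38 to 0.961 and 0.454 CPM (log2 change -3.43 ± 0.30). In Cox7c and Uqcr10 each pair of libraries was close, whereas the 24 h values of Ndufa4l2 were unequal, and its log2 change was -4.09 without 24 h replicate 1 and -3.03 without 24 h replicate 2. Cox6a2, the muscle form of a cytochrome c oxidase subunit, was the member that rose, from 2 counts in both controls to 53 counts in both 24 h libraries, a ratio of 28.5 (95% counting interval 7.52 to 242). It met the minimum count only through the 24 h libraries, so it had to be higher and its call is no support.

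The other mitochondrial lists of nuclear genes held at most 3 members that fell, each with a ZFP143 peak, beside many that were not called. Of 42 OXPHOS assembly factors only Coa3, needed for cytochrome c oxidase, was called, at 34.9 and 34.2 against 10.8 and 10.1 CPM (log2 change -1.72 ± 0.11), and the median of the list was 0.18. Among 16 mitochondrial translation factors 2 fell (median 0.07), the release factor gene Mtrf1 from 10.3 and 9.70 to 1.44 and 3.09 CPM and Gatb, of the complex that makes glutaminyl-tRNA, from 14.9 and 14.5 to 6.41 and 6.18 CPM, neither of which DESeq2 called. The log2 change of Mtrf1, -2.16, was -1.69 without 24 h replicate 1 and -2.78 without 24 h replicate 2. Of 35 import genes 2 fell (median -0.02), namely Timm21 (log2 change -3.82 ± 0.41) and Timm13 (-2.55 ± 0.10), both with functions at the inner membrane. Among 17 chaperones and proteases 3 fell (median 0.02): the disaggregase gene Clpb (log2 change -2.60 ± 0.08), the protease gene Htra2 (-2.18 ± 0.12) and the prohibitin gene Phb (-0.80 ± 0.06). Phb was not called without DMSO replicate 1 or without 24 h replicate 1, and its log2 change lay between -0.86 and -0.75 over the fits without 1 library. Of 14 fission and fusion genes 1 fell (median 0.10), Dnm1l, the GTPase that divides mitochondria, from 334 and 342 to 156 and 147 CPM (log2 change -1.16 ± 0.05). The 24 genes of transcription and copying of mitochondrial DNA (mtDNA) and the 17 mitochondrial tRNA synthetases had no called member, with medians of 0.01 and 0.02. By the quasi-likelihood rule the first of these had 1 lower and 2 higher members and the second 2 lower, near the background of that rule, among them Lars2, which was high in DMSO replicate 1. Tfam, which packages and transcribes mtDNA, had 101 and 106 against 78.3 and 77.3 CPM and was not called.

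Among transcripts of mtDNA itself 2 passed the test, and this rested on the tool and the experiment. Of the 13 mRNAs 7 passed the minimum count, with a summed CPM of 18100 and 20100 in DMSO and 12300 and 12600 after 24 h. All 7 had a negative log2 change, with a median of -0.61. The other 6 had 0 to 2 counts in every library, and the paper plots read mappability along mtDNA beside the genes it detected. Whether those 6 are little expressed or poorly mapped was not tested. Of the 7, mt-Nd5 (log2 change -0.87 ± 0.05) and mt-Cytb (-0.79 ± 0.05) passed the test, and mt-Cytb no longer did without DMSO replicate 2, without 24 h replicate 1 (log2 change between -0.88 and -0.70 over the fits without 1 library) or with scaling by library totals. By the quasi-likelihood rule, with its background of 8.90%, 6 of the 7 were lower. DESeq2 called none of the 7, and none was called in the second experiment, where the median was -0.40, with log2 changes of -0.54 for mt-Nd5 and -0.50 for mt-Cytb. None has a ZFP143 peak by the rule used, which covers nuclear start sites only. In nascent RNA after 24 h all 7 were called lower, against 4.48% of all genes, with a median log2 change of -0.91. After 2 h their median was -0.09 and none was called, from which nothing can be read, since 3.18% of all genes were called lower at that time.

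Transcripts of the integrated stress response, the program of ATF4 that follows shortage of amino acids and mitochondrial or endoplasmic reticulum stress, included 10 that rose. Of 31 tested members none fell, 30 had a positive log2 change and the median was 0.62. With scaling by library totals 16 were higher, and without 1 library 10 to 13. Their summed level was 6530 and 6280 CPM in DMSO and 8400 and 8430 CPM after 24 h. Cebpb, a transcription factor that pairs with CHOP and ATF4, had 1.27 and 1.69 against 11.7 and 8.99 CPM (log2 change 2.78 ± 0.27). Slc7a11, the cystine transporter, had 1.99 and 2.25 against 11.3 and 10.3 CPM (log2 change 2.33 ± 0.20). With Ddit3 and Atf5 these were the greatest increases of the list. Atf4 itself had 479 and 469 against 548 and 541 CPM, a log2 change of 0.20 ± 0.04 that did not pass the test, and ATF4 is known to be set mainly by translation. A peak was present at 3 of the 10 that rose and 8 of the 31 tested. Of 26 p53 targets 1 rose, Plk2, a kinase of stress and synapse signalling, from 23.8 and 25.1 to 49.5 and 51.0 CPM (log2 change 1.04 ± 0.07; list median 0.13). Trp53 (log2 change 0.01), Cdkn1a (-0.47) and Mdm2 (0.30), the gene of p53 and a pair of its best known targets, were not called. Among 16 targets of the antioxidant factor NRF2 only Slc7a11 was called (median -0.27). Of 20 enzymes of serine, glycine and one-carbon metabolism 2 fell and 1 rose (median -0.04). These were Amt of the glycine cleavage system (log2 change -1.46 ± 0.06), Ahcy, which clears S-adenosylhomocysteine (-0.84 ± 0.06), and the mitochondrial folate enzyme gene Aldh1l2 (1.34 ± 0.11). Ahcy was not called without 24 h replicate 2, with a log2 change between -0.89 and -0.78 over the fits without 1 library.

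Among glycolytic transcripts 8 of 20 tested members fell and none rose, and no promoter of the 20 had a ZFP143 peak. Of the 20, 19 had both 24 h libraries below both controls, against 34.2% of all genes, and the median log2 change was -0.47. The summed level was 13200 CPM in each control and 9080 and 9310 CPM after 24 h. Tpi1, triose phosphate isomerase, fell from 446 and 471 to 201 and 217 CPM (log2 change -1.13 ± 0.05). Aldoc, an aldolase, fell from 34.8 and 37.7 to 19.4 and 17.2 CPM (log2 change -0.99 ± 0.10). Pfkl, a phosphofructokinase, fell from 284 and 289 to 143 and 154 CPM (log2 change -0.95 ± 0.05). Ldha, lactate dehydrogenase A, fell from 1030 and 1050 to 559 and 534 CPM (log2 change -0.93 ± 0.04). In each of the 4 the groups did not overlap, and Aldoc was not called without DMSO replicate 2 or without 24 h replicate 2 (log2 change between -1.08 and -0.91 over the fits without 1 library). With scaling by library totals 6 of the 20 were lower and with DESeq2 7. In nascent RNA at 24 h 10 of the 20 were called lower (median -0.75). Hypoxia response genes, which share members with glycolysis, had 3 lower of 15 (median -0.36). They were the glucose transporter gene Slc2a1 (log2 change -0.91 ± 0.05), Bnip3 of mitophagy (-1.78 ± 0.11) and Ankrd37 (-1.32 ± 0.23), and Ankrd37 was called in none of the 4 fits that left out 1 library (log2 change between -1.57 and -1.13). Of 24 cholesterol synthesis genes none was called (median 0.04), and none passed the quasi-likelihood test at adjusted p under 0.05 with a log2 change above 0.5.

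**Figure D3:**
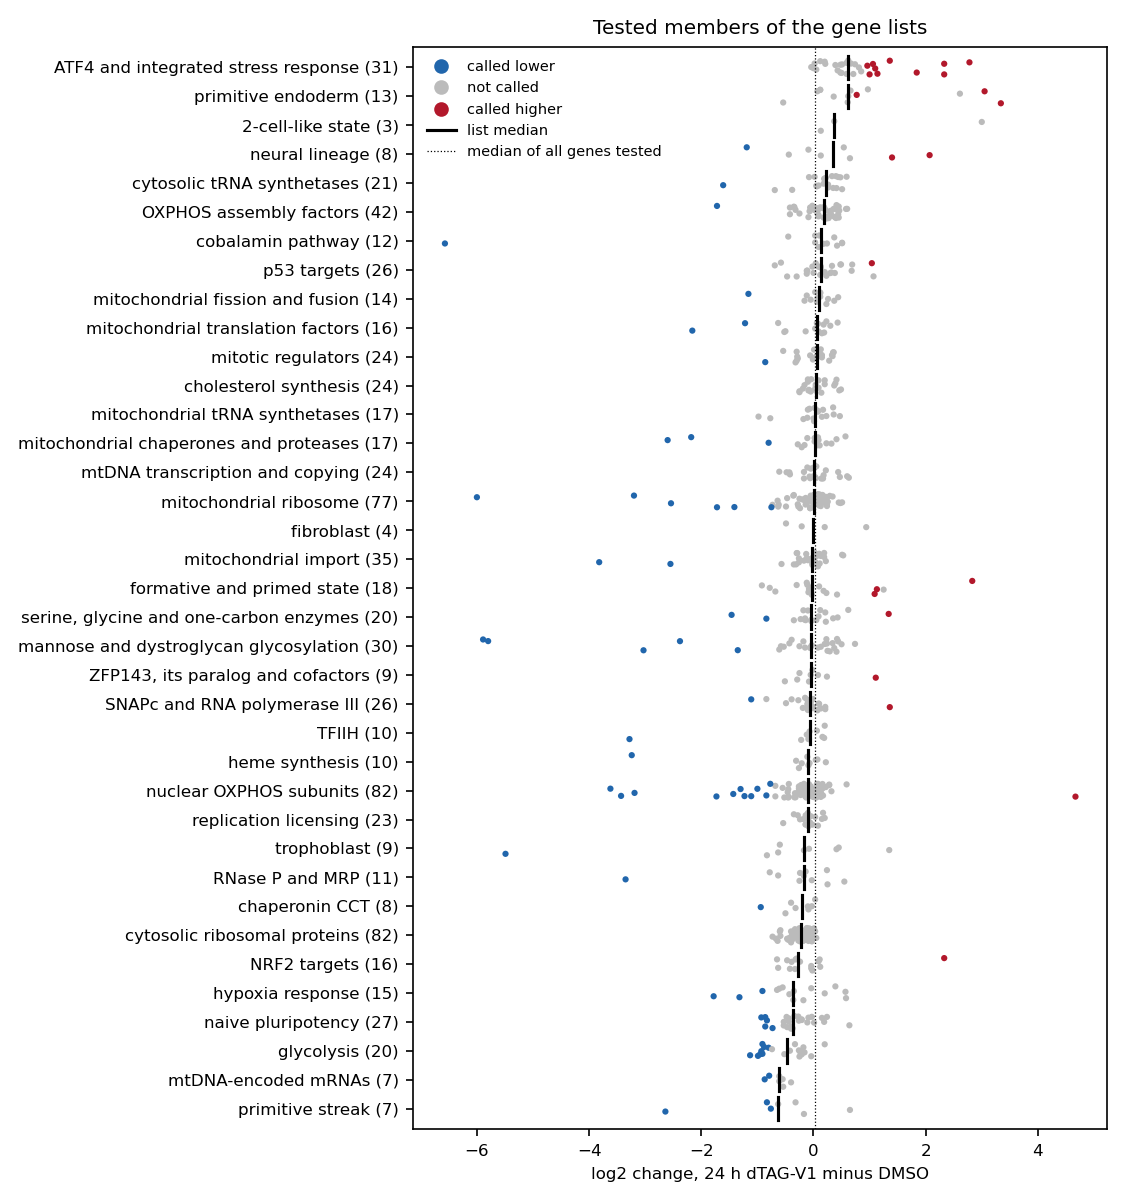
Log2 change at 24 h (horizontal axis) of every tested member of 37 gene lists (1 row each), blue for lower, red for higher and grey for members not called. A black tick marks the median of a list and the dotted line the median of all genes tested, 0.02. Stress response genes lie to the right (median 0.62) and glycolysis genes to the left (-0.47), while the mitochondrial ribosome is centred at 0.01 with a few members far to the left.

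Translation and cell cycle lists held few calls in steady-state RNA. None of 82 cytosolic ribosomal protein genes was called by glmTreat, although 78 had a negative log2 change, the median was -0.22 and the sum went from 57500 and 57700 to 50200 and 48400 CPM. By the quasi-likelihood rule 6 of them were lower, a share not above its background of 8.90%. However, 68 of the 82 had both 24 h libraries below both controls, against 34.2% of all genes, and none had both above. In nascent RNA after 24 h 21 of 81 were called lower (median log2 change -0.43), against 4.48% of all genes. In the second experiment none of the 82 was called and the median was -0.07. Of 21 cytosolic tRNA synthetases 1 fell (median 0.22), Lars, the leucyl-tRNA synthetase, from 544 and 558 to 185 and 177 CPM (log2 change -1.61 ± 0.04). Of 23 replication licensing genes none was called (median -0.10), with 1 lower under the quasi-likelihood rule. Of 24 mitotic regulators 1 fell (median 0.06), Birc5, the survivin of the chromosomal passenger complex, from 132 and 133 to 74.3 and 71.3 CPM (log2 change -0.86 ± 0.05).

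Other lists of enzymes and complexes had 1 called decrease each in most cases. Of 30 genes of mannose metabolism and dystroglycan glycosylation 5 fell and none rose (median -0.04), and all 5 had a peak. Besides Mpi they included Pomt2, an O-mannosyltransferase (log2 change -3.03 ± 0.15), Gmppa, which regulates GDP-mannose synthesis (-2.38 ± 0.11), and Pomgnt2. Pomgnt2, which extends O-mannose on dystroglycan, had 79 counts in both controls and 1 in both 24 h libraries, a ratio of 73.4 (95% counting interval 12.8 to 2930). Of 12 genes of the cobalamin pathway only Mmachc was called (median 0.14). Of 10 heme synthesis genes 1 fell (median -0.10), Cpox, coproporphyrinogen oxidase, from 48.5 and 49.5 to 5.45 and 4.90 CPM (log2 change -3.24 ± 0.13), without a peak by the rule used. Of 10 genes of TFIIH, the general transcription and DNA repair factor, 1 fell (median -0.07), Gtf2h4 (log2 change -3.28 ± 0.13). Of 11 genes of RNase P and MRP, the enzymes that process tRNA and ribosomal RNA precursors, 1 fell (median -0.17), Rpp30 (log2 change -3.35 ± 0.14). Of 26 genes of SNAPc and RNA polymerase III 1 fell, Polr3k (log2 change -1.11 ± 0.10), and 1 rose, Polr3gl (1.36 ± 0.14), both polymerase III subunits (median -0.07). Polr3k was not called by DESeq2 or in the second experiment (log2 change -0.81, edgeR glmTreat adjusted p = 0.0423). Of 8 genes of the chaperonin CCT, which folds actin and tubulin, 1 fell (median -0.21), Tcp1 (log2 change -0.94 ± 0.04). Of 9 tested genes on the list of ZFP143, its paralog and cofactors only Zfp143 was called (median -0.05). The symbol Zfp76 of this list was not in the annotation and has no value. Some genes were shown as examples by the study, which picked them on libraries of this series, so their count is not independent evidence of direction. Of these 9 genes 5 fell (Pomgnt2, Rpp30, Mtrf1, Coa3 and Dnm1l) and Ndufab1 (log2 change -0.45), Tufm (-0.52), Tfam (-0.42) and Cyc1 (-0.26) were not called.

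Markers of the naive stem cell state were abundant in all 4 libraries, with moderate decreases in some. Of 27 tested genes of naive pluripotency 5 fell and none rose, the median was -0.37, and the sum went from 10300 and 10400 to 8440 and 8410 CPM. Klf2 fell from 488 and 459 to 243 and 253 CPM (log2 change -0.93 ± 0.05), and Dppa3 (-0.86 ± 0.08), Spic (-0.86 ± 0.08) and Prdm14 (-0.83 ± 0.08) fell by less than 2-fold. With scaling by library totals 1 of the 27 was called, with DESeq2 2, and without 1 library 3 or 4. In the second experiment 1 of the 27 was called lower (median -0.24), and Dppa3 (log2 change -0.44), Spic (-0.43) and Prdm14 (-0.48) were not called, although Dppa3 had only 2.07 and 1.43 CPM in the controls there. Spic was not called without DMSO replicate 1 or without 24 h replicate 2 (log2 change between -0.94 and -0.78), Dppa3 not without 24 h replicate 2 (-0.94 to -0.79), and Prdm14 was called in 1 of the 4 such fits, that without 24 h replicate 2 (-0.97 to -0.69). The core factors were not called, with Pou5f1 at 1090 and 1130 against 1020 and 1030 CPM, Sox2 at 505 and 517 against 406 and 386, Nanog at 748 and 769 against 536 and 511, and Zfp42 at 584 and 599 against 423 and 432. Nanog passed the quasi-likelihood test at adjusted p under 0.05 with a log2 change beyond 0.5 (log2 change -0.53). Of 18 tested formative and primed genes none fell and 3 rose (median -0.03), Sfrp2 (log2 change 1.09 ± 0.12), Sox4 (1.13 ± 0.12) and Pou3f1, which went from 1 and 3 to 17 and 11 counts and was called in none of the 4 fits that left out 1 library (log2 change between 2.44 and 3.57). Neither Sfrp2 (1.02 to 1.16 over those fits) nor Sox4 (1.01 to 1.25) was called without DMSO replicate 2, and DESeq2 called none of the 18.

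Markers of other cell types were mostly near the limit of detection. In the primitive endoderm list 13 of 20 genes passed the minimum, 3 rose and none fell (median 0.62), and the sum went from 1270 and 1310 to 1580 and 1620 CPM. Col4a1 had 1.27 and 1.55 against 12.2 and 11.4 CPM (log2 change 3.05 ± 0.19) and Col4a2, its partner in basement membrane collagen on the opposite strand, 0.996 and 0.562 against 8.89 and 6.45 CPM (3.34 ± 0.29). Sparc, which binds collagen, went from 266 and 259 to 436 and 460 CPM (log2 change 0.77 ± 0.04). Without 24 h replicate 2 Sparc was not called (0.73 to 0.81 over the fits without 1 library). The defining factors had few counts, at 0 to 6 for Gata6, 2 to 9 for Sox17 and 0 to 2 for Sox7 in the 4 libraries. Of 9 tested trophoblast genes only Krt7 was called (median -0.17), and Cdx2 had 0 counts in all 4 libraries. Of 7 tested primitive streak genes 3 fell (median -0.63), namely Wnt3 (log2 change -2.64 ± 0.54), Lefty1 (-0.83 ± 0.05) and Lefty2 (-0.76 ± 0.04), all also genes of stem cell signalling, while T had 2 to 8 counts. Wnt3 was called in 1 of the 4 fits that left out 1 library, that without DMSO replicate 2 (-3.04 to -2.20 over the 4), and Lefty1 was not called without 24 h replicate 1 (-0.93 to -0.74). With library totals and with DESeq2 1 of the 7 was lower, and in the second experiment Lefty1 (log2 change -0.39) and Lefty2 (-0.27) were not called and Wnt3 was not tested. Of 8 tested neural genes 1 fell, Tubb3 (log2 change -1.19 ± 0.06), and 2 rose, the neuronal filament gene Prph (2.07 ± 0.26) and Sox1 (1.40 ± 0.23; list median 0.34). Sox1 was not called without DMSO replicate 2 or without 24 h replicate 1 (1.33 to 1.46) or by DESeq2, and neither Prph (log2 change 0.55) nor Sox1 (0.48) was called in the second experiment. Fibroblast markers, of which 6 had 0 counts in all 4 libraries and 4 were tested, and the 3 tested genes of the 2-cell-like state had no call (medians of 0.00 and 0.37), with 1 higher in each under the quasi-likelihood rule. The part of other cell types in the results above was not tested.

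ZFP143 peaks were concentrated at the genes that fell. A gene was counted as bound where a peak reached into the 2000 bp before or the first 1000 bp after one of its start sites and its centre lay no more than 2000 bp from that site. A peak was present at 404 of 505 lower genes with such a site (80.0%), at 31 of 317 higher genes (9.78%) and at 1633 of 11702 genes not called (14%). Of 2068 tested genes with a peak 19.5% fell and 1.50% rose, with a median log2 change of -0.26, and of 10456 without a peak 0.966% fell and 2.74% rose, with a median of 0.06. Most bound genes were thus not called. Peaks at promoters of genes that fell had a median enrichment of 49.8-fold over input (392 peaks), and those at other tested promoters 33.2-fold (1381 peaks). The peak list comes from the tagged cells themselves and has no replicates.

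**Figure D4:**
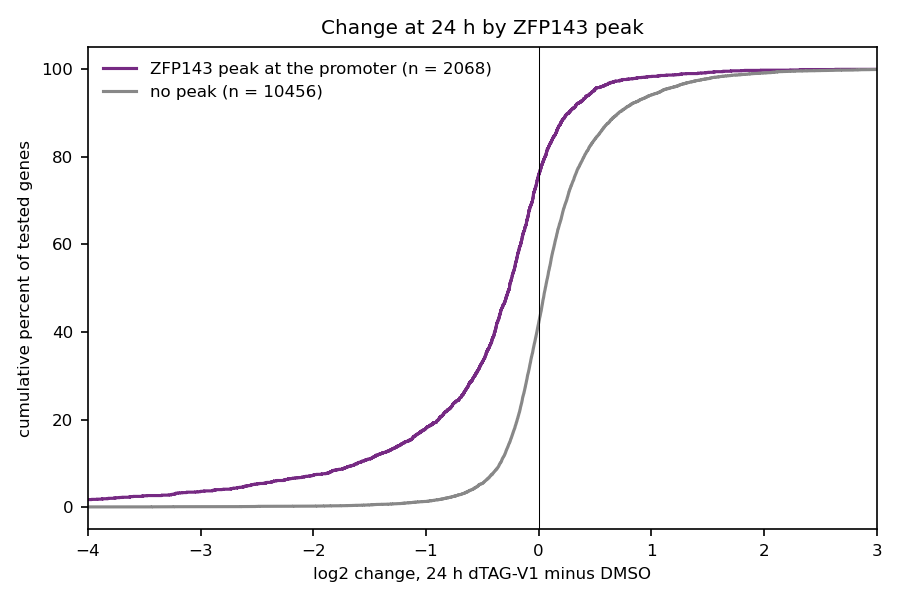
Cumulative share of tested genes (vertical axis) by log2 change at 24 h (horizontal axis, drawn from -4 to 3), for 2068 genes with a ZFP143 peak at the promoter and 10456 without. The curve of genes with a peak is shifted to lower values, with medians of -0.26 and 0.06.

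Nascent RNA gave the same direction for nearly all genes that fell, with a negative log2 change for 513 of the 518 measured in both. In TT-seq after 24 h 806 of 17977 genes were lower (4.48%) and 388 higher (2.16%), called by edgeR's quasi-likelihood test at an adjusted p under 0.05 with a log2 change beyond 0.5. These counts were 353 to 522 and 112 to 195 without 1 library, and 1279 and 1049 with the replicate number as a block. Of the 518 decreases 376 were also lower in nascent RNA, which is 72.6% of the steady-state and 54.6% of 689 nascent decreases. Of 313 increases 94 were also higher, or 30% of the steady-state and 33.5% of 281 nascent increases, and no gene was called in opposite directions. A positive log2 change in nascent RNA was found for 302 of the 313. All overlaps given here, those at 2 h included, use the nascent calls of the fit without the block. Across 12810 genes, which share the cell line but no library, Pearson's r of the log2 changes was 0.786 and Spearman's rho 0.609, where genes are not independent replicates. After 2 h in dTAG-V1, 293 of the 518 decreases were called lower in nascent RNA (56.6%, against 3.18% of the 12810 genes), and 12 of the 313 increases were called higher (3.83%, against 0.211%). A peak was present at 276 of 287 lower genes that were also lower in nascent RNA at 2 h (96.2%), and at 72 of 136 that were not called in nascent RNA at 24 h (52.9%).

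How many genes differed between the assays depended on the model. With limma voom without a replicate term (interaction of assay and treatment, adjusted p under 0.05 and a difference beyond 0.5), 6 of 12810 genes were more negative in steady-state RNA (0.0468%) and 6 less negative (0.0468%), whereas with the replicate number as a block 289 and 277 were. The nascent libraries varied more, with a biological coefficient of variation of 17.3% against 3.65% (edgeR). Mrpl24 had 20.1 and 19.9 CPM in nascent DMSO libraries and 13.9 and 10.2 CPM at 24 h, a log2 change of -0.73 against -3.20 in steady-state RNA (difference -2.47, limma adjusted p = 0.00623). Npl, an enzyme of sialic acid breakdown, had log2 changes of -0.27 and -4.55 (difference -4.44), but with 67 and 90 counts in DMSO and 1 and 5 after 24 h it met the minimum only through DMSO and had to be lower in steady-state RNA, where its log2 change was -3.74 without 24 h replicate 1 and -6.11 without 24 h replicate 2. Ccdc163 had -0.31 and -2.67 (difference -2.38). All 3 had a ZFP143 peak, and Mrpl24 and Ccdc163 overlap another tested gene. The opposite pattern was seen at Snhg12, a host gene of small nucleolar RNAs, with 326 and 347 against 71.4 and 74.0 CPM in nascent RNA (log2 change -2.21) and 32.0 and 33.1 against 30 and 28.8 CPM in steady-state RNA (difference 2.02, limma adjusted p = 0.000313). Napb, of the NSF attachment proteins, had a nascent log2 change of -2.53 and a steady-state one of -0.30. The third of the greatest differences in that direction was 2410006H16Rik, at -0.79 and 0.42, and its gene overlaps a small nucleolar RNA.

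**Figure D5:**
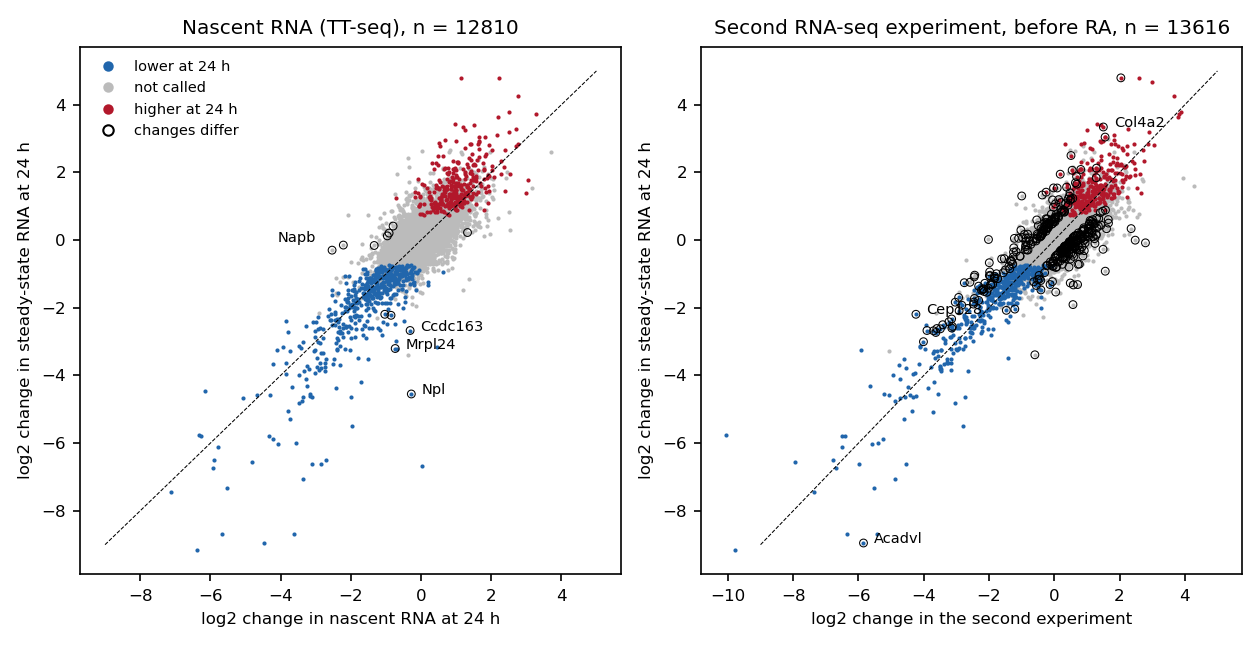
Log2 change in steady-state RNA at 24 h (vertical axis) against that in nascent RNA at 24 h (left, 12810 genes) and in the second RNA-seq experiment (right, 13616 genes), with blue for lower, red for higher and grey for genes not called at 24 h. Black rings mark genes whose change differed by the test of the difference (6 and 6 on the left, 169 and 189 on the right), and the dashed line marks equal changes. Of the genes lower at 24 h, 513 of 518 are negative on the left and all 520 on the right, and some called genes lie far from the line.

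The second experiment repeated the same comparison with its own controls, in mESCs sampled before a treatment with retinoic acid (RA). In it 601 of 15007 genes were lower (4.00%) and 445 higher (2.97%) by edgeR glmTreat with the thresholds above, or 497 and 650 with scaling by library totals and 467 and 154 with DESeq2. Without 1 library 487 to 561 were lower and 233 to 302 higher. Of 520 decreases measured in both, 445 were called again (85.6%, and 76.5% of the 582 of the second experiment), and of 324 increases 180 were (55.6%, and 45.9% of 392), with none opposite. Pearson's r over 13616 genes was 0.852 and Spearman's rho 0.741, as a description across genes. Other genes named here as called that were not called in the second experiment were Rnf157 (log2 change 0.69), Plk2 (0.42), Ankrd37 (-0.58), Ldha (-0.83), Pou3f1 (0.33), Sox4 (0.82) and Sparc (0.48). Acadvl had 35.1 and 37.9 CPM in the controls and 0.699 and 0.573 CPM after 24 h there. The difference between the experiments was itself past the threshold for 169 genes that were more negative in the second (1.24% of 13616) and 189 more positive (1.39%), by edgeR's quasi-likelihood test of the interaction. Cep128, a protein of centrioles, had 34.5 and 34.4 against 8.01 and 6.99 CPM in the first experiment, and 39.3 and 40.9 against 1.95 and 2.25 CPM in the second (difference -2.04, edgeR quasi-likelihood adjusted p = 8.86e-06). Ank, a pyrophosphate transporter, had log2 changes of 1.54 and -0.02 (difference -1.56), and at 24 h it was not called without DMSO replicate 2 or without 24 h replicate 1 (1.23 to 1.85 over the fits without 1 library). These 2 counts rested on single libraries: they were 352 and 482 without DMSO replicate 1 of the second experiment, and 47 and 38 without its dTAG replicate 1. Col4a2 had 6.07 and 6.02 against 15 and 19 CPM in the second experiment, so that its log2 increase was smaller there (difference -1.84) while its control level was higher than the 0.996 and 0.562 CPM of the first.

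Reads of overlapping genes could not always be assigned. Of the 855 called genes 177 overlap another tested gene, as do 28 of the 111 genes named, among them Acadvl, Rnaseh2c, Ccdc90b, Usp40, Mrps25, Ddit3, Atf5, Trmt10a, Mrpl24, Tpi1, Col4a1 and Col4a2. The library kit keeps the strand, but which strand column of the counts was deposited is not given in the sources used here, so their values are uncertain to that extent.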

How the data were processed

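The members and gene lists were chosen with earlier results of these data known. RNA was made into libraries with a stranded mRNA kit. The authors mapped reads with STAR to mm10 and deposited raw read counts per gene on GENCODE vM25, made for RNA-seq by STAR and for TT-seq by HTSeq after removal of duplicates and a split by strand. The strand column used for RNA-seq is not given in the sources used here. The deposited ZFP143 peak list holds 2 MACS2 values per peak, the ratio to input (fold enrichment) and −log10 q-value, without replicates. Symbols and positions come from an annotation of the same build, in which 55141 of 55401 identifiers matched without their version number. All 24 count columns were mapped to samples, and no libraries held identical values.

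Counts were scaled by TMM and fitted with edgeR 4.0.16 in R 4.3.3, with all 8 libraries of a table in 1 fit, so that 2 libraries per group share an estimate of the spread (biological coefficient of variation of 3.65%, 5.86% and 17.3% in the time course, the second experiment and TT-seq). Steady-state calls used glmTreat against a fold change of 1.5 at a Benjamini-Hochberg adjusted p under 0.01, and nascent calls the quasi-likelihood test at adjusted p under 0.05 and a log2 change beyond 0.5. The SE of a log2 change is its size divided by the root of the quasi-likelihood F statistic. Steady-state and nascent changes were compared with voom of limma 3.58.1, which weights libraries by assay. Scripts were tested on simulated counts. Intervals of ratios of few counts are exact binomial ones at 95% and cover counting error only.

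The 111 genes named are Zfp143, the 12 greatest decreases and 12 greatest increases with a mean count of at least 100 and separated groups, up to 4 called members of each of 38 lists (or the most changed where none was called), the examples of the study, 8 pluripotency and stress factors, and the 3 greatest differences per direction and test. CT010467.1 and Lars2, other list members given by their counts, and the neighbours and host genes in the closing section were added after their values had been seen. Alternatives were other scalings, DESeq2 1.42.0, other thresholds and minimum counts, the 4 libraries alone, leaving out each library and the replicate number as a block. Leaving out 7 genes that match ribosomal RNA was added after seeing the data. Lists are described by counts and medians. Some list symbols, such as Zfp76, were not in the annotation and have no value. Libraries after 48 h and 72 h share the controls and are given by value only. CTCF peaks and 4C were not used here.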

Additional observations from a re-analysis of the deposited data

Results flagged for a closer look

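The change at 24 h differed between the first and the second experiment, by edgeR's quasi-likelihood test of the interaction of experiment and treatment (adjusted p under 0.05 and a difference beyond 0.5), for 169 genes that were more negative and 189 that were more positive in the second. Among the genes named, the second minus the first log2 change was 3.20 for Acadvl, 1.27 for Enpp3 and 1.23 for Fam83b. It was negative for Cep128 (-2.04), Col4a2 (-1.84), Ank (-1.56), Prph (-1.51), Col4a1 (-1.48), Ccdc163 (-1.22), Rnf157 (-0.96), Sox1 (-0.91), Mrpl34 (-0.71), Plk2 (-0.61), Timm13 (-0.56), Atf5 (-0.55) and Clpb (-0.53). Acadvl fell to near zero in both experiments, and with 1 count left in the first its difference rests on very few reads. For Col4a1, Col4a2, Prph, Plk2, Rnf157, Sox1 and Atf5 the log2 increase was smaller in the second experiment, and for Cep128, Ccdc163, Mrpl34, Timm13 and Clpb the decrease was greater. Control levels were higher in the second experiment for Col4a1 (16.6 and 14.1 against 1.27 and 1.55 CPM), Col4a2 (6.07 and 6.02 against 0.996 and 0.562 CPM), Prph (4.85 and 7.62 against 1.09 and 0.913 CPM) and Sox1 (11.6 and 10.9 against 2.08 and 1.90 CPM). In CPM Col4a1 rose more there, to 44.4 and 46.2 against 12.2 and 11.4 CPM, as did Col4a2, to 15 and 19 against 8.89 and 6.45 CPM. Enpp3 had 17.1 and 15.7 CPM in DMSO and 21.3 and 19.9 CPM after 24 h in the first experiment and 3.94 and 3.75 against 12.5 and 11 CPM in the second, so that its control level differed as well. Fam83b had 9.78 and 13.1 against 8.97 and 9.81 CPM in the first and 2.63 and 2.26 against 4.09 and 5.12 CPM in the second. The experiments differ in depth and controls, whose part was not tested.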

How the results depend on the processing

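No called gene among the 111 chosen by the naming rule changed direction in the alternatives run, whereas CT010467.1, at -2.0, was 0.13 without DMSO replicate 1. Of genes not called, the log2 change of Lars2, at -0.98, ranged from -1.56 to 0.01 without 1 library, the latter without DMSO replicate 1, that of Pou5f1 was 0.01 with library totals, and that of Trp53, at 0.01, ranged from -0.04 to 0.05 without 1 library, was -0.02 without a minimum and was 0.00 with size factors of DESeq2, DESeq2, the minimum in 4 of 8 libraries and the 4 libraries alone. Of the 87 that were called, 20 were lost with DESeq2 (mt-Nd5, mt-Cytb, Mtrf1, Gatb, Phb, Ahcy, Ankrd37, Aldoc, Dppa3, Spic, Prdm14, Pou3f1, Sox4, Sfrp2, Sparc, Wnt3, Lefty1, Sox1, Polr3k and Ank), 11 with library totals (mt-Cytb, Phb, Ahcy, Ankrd37, Aldoc, Dppa3, Spic, Prdm14, Lefty1, Lefty2 and Birc5), 6 to 9 without 1 library and none with size factors of DESeq2 in edgeR, no minimum, the minimum in 4 of 8 libraries (where 74 were tested), the 4 libraries alone or the replicate block. The lower and higher counts of 528 and 327 were 365 and 109 with DESeq2, 1227 and 1554 with the quasi-likelihood thresholds, 565 and 360 without a minimum (24854 genes tested, some of them called on few counts), 475 and 323 with the minimum in 4 of 8 libraries, which drops genes seen only in DMSO, and 532 and 335 without the 7 genes that match ribosomal RNA. Without 1 library they ranged from 445 to 505 and from 231 to 255. In the second experiment the 601 and 445 calls were 467 and 154 with DESeq2 and 487 to 561 and 233 to 302 without 1 library. In nascent RNA the 806 and 388 calls were 353 to 522 and 112 to 195 without 1 library, the fewest without TT-seq 24 h replicate 2 and DMSO replicate 1. Genes that differed between the assays (6 more negative, 6 less negative in steady-state RNA) were 3 and 2 with edgeR and 1 dispersion trend, 12 less negative with library totals, and 0 to 6 and 1 to 8 without 1 library, with none more negative without 24 h replicate 1. Genes that differed between the experiments (169 and 189) were 125 and 95 with DESeq2, and 47 to 352 and 38 to 482 without 1 library. With the replicate number as a block the counts were 530 and 328 at 24 h, 590 and 412 in the second experiment, 1279 and 1049 in nascent RNA, 289 and 277 between the assays, and 202 and 254 between the experiments. Deviations of same-numbered libraries correlated at -0.0893 in the time course, 0.148 in the second experiment and 0.724 in TT-seq. No label says what the number stands for and each comparison has only 2 pairs, so the fit without the block was kept, although same-numbered TT-seq libraries deviated together and the nascent and assay counts rest on this choice. Medians of 10 lists changed sign with library totals, among them those of nuclear OXPHOS subunits, mitochondrial import, replication licensing and heme synthesis, and of the mitochondrial ribosome without a minimum or without 24 h replicate 1. With peak centres within 500 bp 78.6% of lower and 9.15% of higher genes had a peak, and with peaks of at least 20-fold enrichment 71.1% and 8.83% did. The cause of these shifts was not tested. With 10989976 to 15316700 counts per library, genes at few counts were not resolved, while changes below 1.5-fold were set aside by the test and not by depth: of the genes that fell 7 had 0 and 18 had 1 to 3 counts after 24 h.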

Other observations

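Some genes that face each other across a shared promoter fell together. Of the 528 lower genes 76 (14.4%) had a tested neighbour that starts within 1000 bp on the opposite strand, as did 15.5% of all tested genes, and in 24 of the 76 (31.6%) the neighbour fell as well, against 3.61% of the neighbours of all tested genes. These made 12 pairs. Each had a ZFP143 peak counted at both genes, but with starts so close a single peak is counted for both nearly by construction. Uqcr10 of complex III and Zmat5, a protein of the minor spliceosome, had log2 changes of -3.19 and -3.72, with 1394 and 1873 counts in DMSO against 176 and 157 for the first and 342 and 441 against 27 and 28 for the second. Mmachc, which met the minimum count only through DMSO and had to be lower, and Ccdc163 had -6.57 and -2.67, the mitochondrial protease gene Htra2 and the lipid droplet gene Aup1 -2.18 and -1.66, and Pomt2 and Gstz1, of tyrosine breakdown, -3.03 and -1.12. Htra2 overlaps Aup1 and Pomt2 overlaps Gstz1 on the opposite strand, and whether shared reads made them move together was not tested. In 2 pairs the directions were opposite. The deubiquitinase gene Vcpip1 fell, with 821 and 1044 counts in DMSO against 362 and 331 (log2 change -1.32), while its neighbour 1700034P13Rik had 7 and 5 against 85 and 72 counts (3.78), and since it met the minimum only through the 24 h libraries it had to be higher. The Polycomb cofactor gene Asxl1 fell, with 2105 and 2841 against 809 and 698 counts (log2 change -1.61), while 2500004C02Rik rose from 22 and 30 to 96 and 145 counts (2.32). Whether reads of one gene were counted for the other could not be told apart, since the strand setting of the counts is not given in the sources used here.

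The 6 genes whose change was less negative in steady-state than in nascent RNA, a set that grew to 277 with the replicate block and ranged from 1 to 8 without 1 library, are given by value. Besides Snhg12, Napb and 2410006H16Rik they were Snhg1, with log2 changes of 0.13 in steady-state and -0.96 in nascent RNA (difference 1.05, limma adjusted p = 0.0195), Snhg5, with 0.21 and -0.91 (difference 1.07, limma adjusted p = 0.0457), and Rcc1, the exchange factor of the Ran GTPase, with -0.16 and -1.33 (difference 1.13, limma adjusted p = 0.00623). On the other side the genes beside Npl, Mrpl24, Ccdc163 and Cep128 were Cnih4 (-2.22 and -0.85) and Fkbp6 (0.22 and 1.33). A ZFP143 peak was present at each of these 12 genes except Fkbp6 and Snhg5.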
